A study of Mus musculus with 7 samples.

Results

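Meis1 and Meis2 encode homeodomain transcription factors of the TALE class, and the chromatin around both genes was examined here for binding of Shox2 and of Pbx in the mouse embryo. Peaks were taken as belonging to a locus when their midpoint lay in a window of 1.3 Mb around the gene, chr11:18200000-19500000 for Meis1 and chr2:115200000-116500000 for Meis2 (mouse build mm9). The windows held 30 of 15091 Shox2 peaks from palate, 71 of 33915 Shox2 peaks from limb and 75 of 33915 Pbx peaks from limb, or 176 of 82921 peaks in all (0.212%). The palate list gives each site as a position of 1 bp and the limb lists give intervals. Of the 176, 98 lay in the Meis1 window and 78 in the Meis2 window. A window takes in all peaks near a gene, and no measurement here ties a peak to the gene it may act on.

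Immunoprecipitation of chromatin with sequencing of its DNA (ChIP-seq) maps where a protein sits on DNA, and was applied to tissue dissected at stage E12.5. Shox2 was precipitated with an anti-HA antibody from palate and from limb of embryos whose Shox2 carries an HA tag, and Pbx with an anti-Pbx antibody from limb, each as 1 library. The series lists 4 other libraries, not analysed here. They are Shox2 in limb at a later stage, Shox2 in a mix of limb and palate, an input and a control. The control is the anti-HA ChIP from untagged Shox2+/+ embryos. Its title says nontagged, while its sample type label reads Shox2-HA. The strain, the copies of the tagged allele and the number of embryos pooled were not given in the sources used here. All lists hold positions without a height, score or p-value, so the depth is unknown, a site missing from a list is not shown to be unbound, and no value below has a replicate error.

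Meis and Pbx proteins bind DNA together and with other homeodomain proteins, and Meis proteins help to keep Pbx in the nucleus. In the early limb bud Meis1 and Meis2 are expressed in the proximal part and are used as its markers. In mouse, Meis2 is also needed in the cranial neural crest, from which the palate mesenchyme comes. Shox2 is a homeodomain factor needed for the proximal limb skeleton and for growth of the palate. In the RefSeq gene order of GRCm38.p6, used here for names only, the nearest protein-coding genes were Etaa1 below and Spred2 above Meis1 (gene ID 17268), and BC052040 below and Tmco5 above Meis2 (gene ID 17536). In mm9 Meis1 lies near 18.78 to 18.92 Mb of chromosome 11 and Meis2 near 115.69 to 115.89 Mb of chromosome 2. These ends are known to 10 kb, and peaks close to them cannot be placed inside or outside the gene. Both genes are transcribed from the minus strand, so the higher coordinate is the 5′ end and upstream lies toward higher coordinates.

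The widest Pbx peak of the Meis2 window lay across the rounded 5′ end of the gene. That of the Meis1 window had its centre less than 10 kb from the gene's 5′ end, which is known only to 10 kb. The sequence before each start site is therefore shown, but whether it lies under these peaks is not known. The 250 bases upstream of the RefSeq start site, 5′ to 3′ on the gene's strand, are from build GRCm38.p6, whose coordinates cannot be compared with the mm9 peaks: chr11:19018970-19019219 (minus strand) for Meis1 and chr2:116064620-116064869 (minus strand) for Meis2.
Meis1: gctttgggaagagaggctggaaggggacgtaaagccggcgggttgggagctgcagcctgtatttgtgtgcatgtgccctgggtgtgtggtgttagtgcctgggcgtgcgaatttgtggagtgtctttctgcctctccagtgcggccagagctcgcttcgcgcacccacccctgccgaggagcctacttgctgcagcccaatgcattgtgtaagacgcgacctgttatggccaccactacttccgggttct
Meis2: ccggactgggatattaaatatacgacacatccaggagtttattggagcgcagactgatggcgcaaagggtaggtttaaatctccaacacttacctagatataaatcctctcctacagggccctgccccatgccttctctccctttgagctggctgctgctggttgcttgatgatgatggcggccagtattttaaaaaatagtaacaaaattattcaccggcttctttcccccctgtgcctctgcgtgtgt
No capitals appear because none of the 4 motifs searched on both strands was found in either stretch. The motifs were TGACAG (a Meis site), TGATTNAT (a site of Pbx with a Hox partner) and the paired homeodomain palindromes of TAAT and ATTA with 2 or with 3 bases between them. Among 32851 promoters of this length, 15.9%, 2.82%, 0.384% and 0.463% held them, in the order given. G and C made up 59.6% of the Meis1 stretch and 47.6% of the Meis2 stretch.

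At Meis2, a Pbx limb peak of 8853 bp covered chr2:115886104-115894956, across the 5′ end of the gene near 115.89 Mb. It was the 5th widest of the 33915 Pbx peaks and stood on line 843 of the list. At Meis1, a pair of wide Pbx peaks lay near the 5′ end. The first, of 5177 bp at chr11:18909794-18914970, ranked 34th in width, and the second, of 3639 bp at chr11:18917770-18921408, ranked 182nd and spans the position near 18.92 Mb. Only 9 Pbx peaks (0.0265%) reached 8000 bp and 386 (1.14%) reached 3000 bp, of which 2 lay in the Meis1 window and 2 in the Meis2 window. The other one in the Meis2 window covered 4316 bp at chr2:115683440-115687755, next to the 3′ end near 115.69 Mb, and ranked 79th. Next in width in each window came a peak of 2211 bp at chr11:18773445-18775655, just below the 3′ end of Meis1, which stood far down the list on line 32388, and a peak of 2597 bp at chr2:115601280-115603876, on line 3904. The median width was 975.5 bp in the Meis1 window and 954 bp in the Meis2 window, against 897 bp in the whole Pbx list.

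Of the 4 Pbx peaks of over 3000 bp in both windows, 1 met a Shox2 limb peak. In the whole list 138 of the 386 Pbx peaks of at least 3000 bp (35.8%) and 23.4% of all Pbx peaks did, so a lack of overlap is the more common case. No Shox2 limb peak overlapped the 8853 bp peak of Meis2, and the nearest lay 56922 bp away. The nearest palate position lay 41051 bp away. The 3639 bp peak of Meis1 and the 4316 bp peak of Meis2 held no Shox2 peak either. The 5177 bp peak of Meis1 held the narrow Shox2 limb peak chr11:18911978-18912147, which at 170 bp has the smallest width in the Shox2 limb list. The nearest palate position to it was 95043 bp away.

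**Figure D1:**
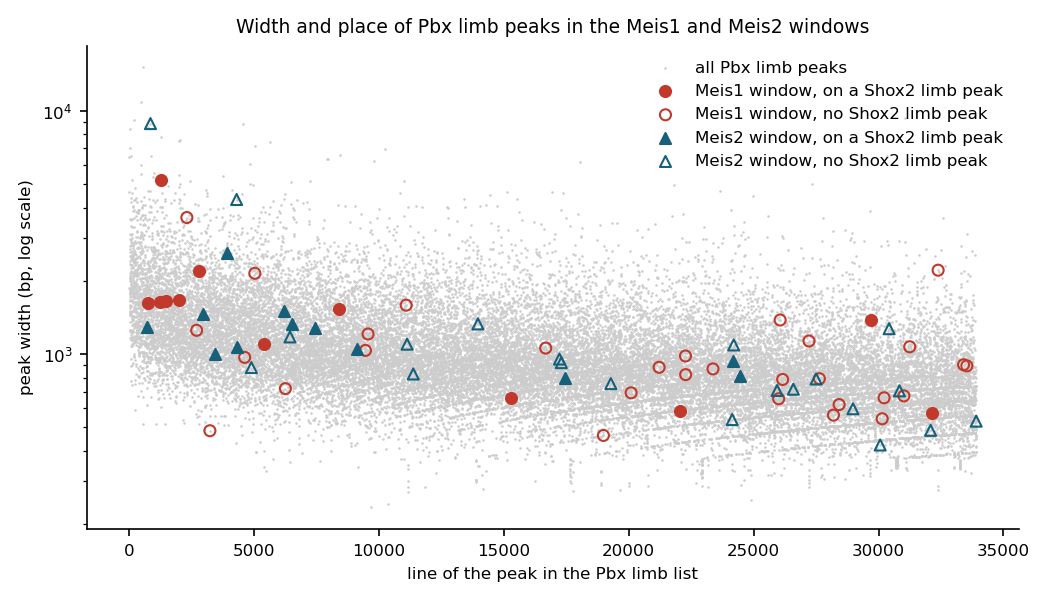
Width of each Pbx limb peak (bp, log scale) against its line in the deposited list, in grey for all 33915 peaks, with circles for the 42 peaks of the Meis1 window and triangles for the 33 of the Meis2 window, filled where a Shox2 limb peak overlaps. The open triangle at 8853 bp is the peak at the 5′ end of Meis2. The filled circle at 5177 bp and open circle at 3639 bp are those near the 5′ end of Meis1.

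Peaks of all lists were spread over both windows with different centres of weight. Upstream of Meis1, 17 palate Shox2 positions, 17 Shox2 limb peaks and 21 Pbx limb peaks lay in 0.58 Mb. The 0.14 Mb of the gene held 1 palate position, 6 Shox2 limb peaks and 11 Pbx peaks, and the 0.58 Mb downstream held 3, 12 and 10. Per Mb, Pbx peaks were densest over the Meis1 gene, at 78.6 per Mb, against 36.2 upstream and 17.2 downstream. Between its flanks, the Meis2 window leaned the other way. Its 0.49 Mb downstream of the gene held 4 palate positions, 19 Shox2 limb peaks and 22 Pbx peaks. The 0.2 Mb of the gene held 4, 7 and 5, and the 0.61 Mb upstream held 1, 10 and 6. Shox2 limb peaks lay at 38.8 per Mb downstream of Meis2, 35.0 over the gene and 16.4 upstream. At Meis1 they lay at 20.7 per Mb downstream, 42.9 over the gene and 29.3 upstream. Palate positions of the Meis2 window were densest over the gene, at 20.0 per Mb, against 8.16 downstream. The uneven spread within the windows is a description and was not tested.

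**Figure D2:**
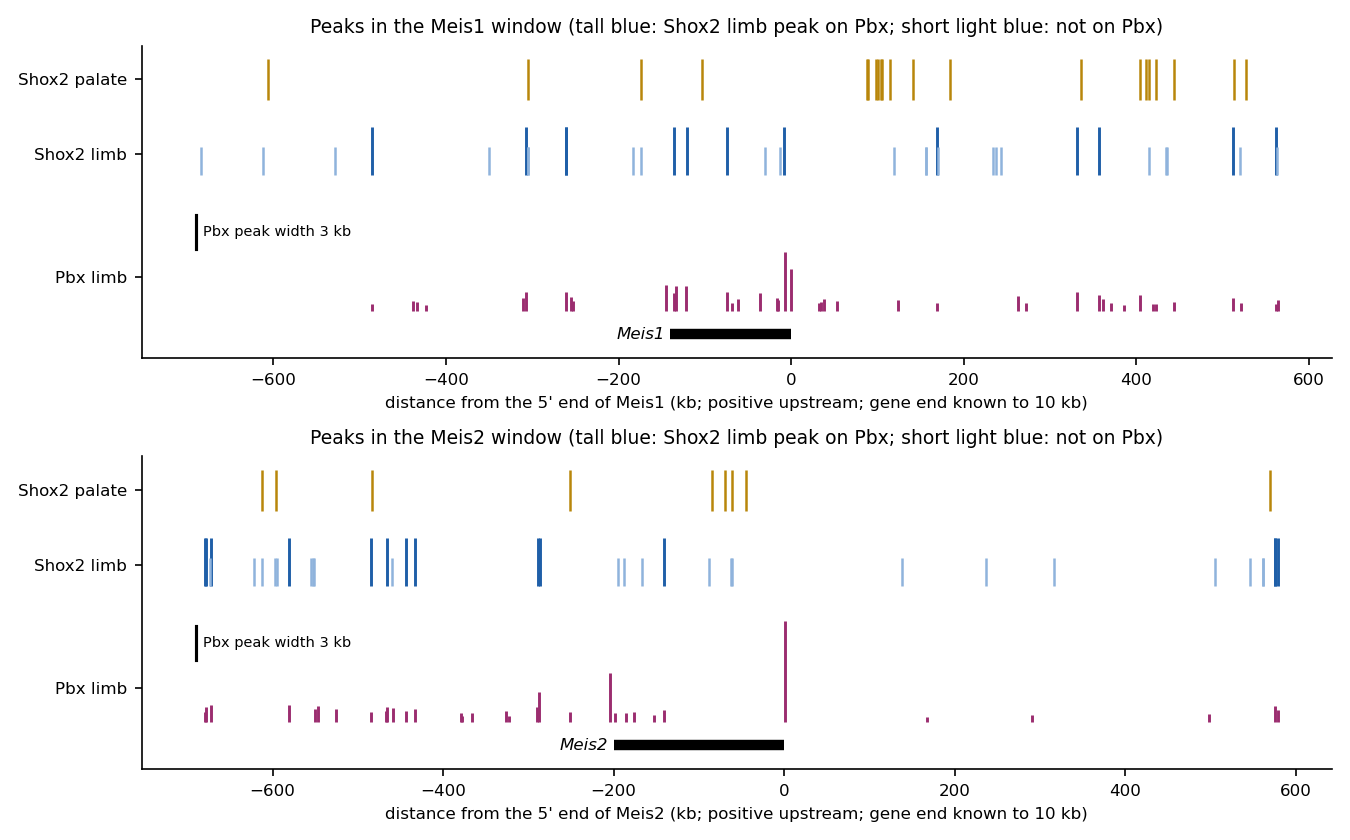
Positions of peaks in the Meis1 window (above) and the Meis2 window (below) by distance from the gene's 5′ end in kb, upstream positive, with the gene as a black bar. Rows from the top are palate Shox2 positions, limb Shox2 peaks (tall where a Pbx peak overlaps) and limb Pbx peaks with height showing peak width. The tallest Pbx bars stand at or near the 5′ ends, and 7 palate positions stand close together upstream of Meis1.

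**Figure D3:**
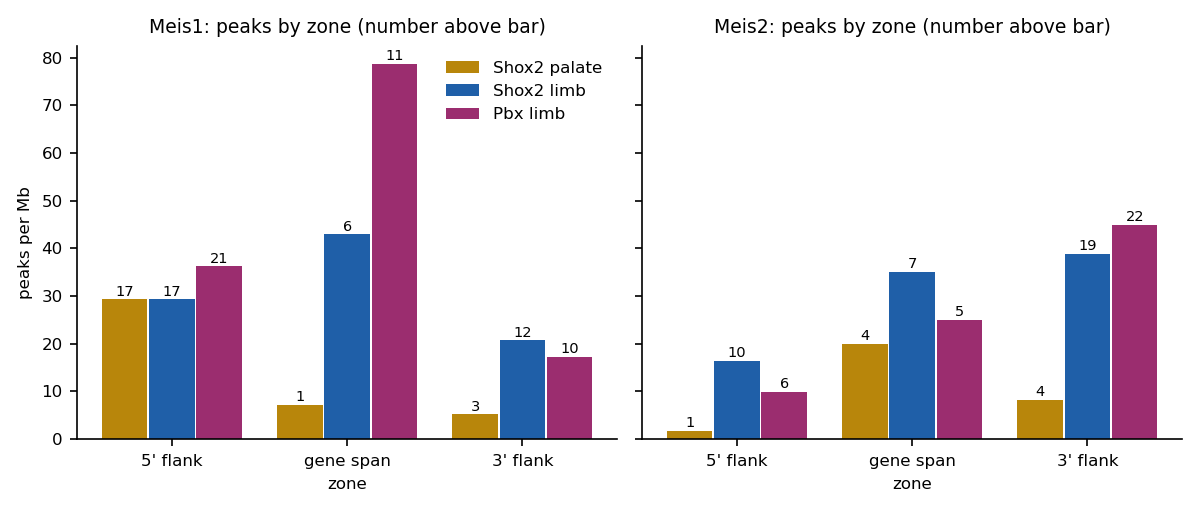
Peaks per Mb of palate Shox2, limb Shox2 and limb Pbx in the 5′ flank, the gene and the 3′ flank of each window, with the number of peaks above each bar. Pbx peaks were densest over the Meis1 gene (78.6 per Mb), and in the Meis2 window limb peaks were densest in the 3′ flank for Pbx (44.9 per Mb) and for Shox2 (38.8 per Mb).

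Both windows were among those with many limb peaks. The genome was divided into 1951 windows of 1.3 Mb that held a peak, with each locus as 1 window. The Meis1 window held 35 Shox2 limb peaks and the Meis2 window 36, against a median of 14 (quartiles 7 and 24), and more were found in 209 and 190 windows. Pbx limb peaks numbered 42 at Meis1 and 33 at Meis2, against a median of 14, with more in 123 and 263 windows. Of palate Shox2 positions, Meis1 had 21, more than 94.4% of windows, and Meis2 had 9, more than 62.5% of windows, against a median of 6. In windows of 2.6 Mb both loci held 27.

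**Figure D4:**
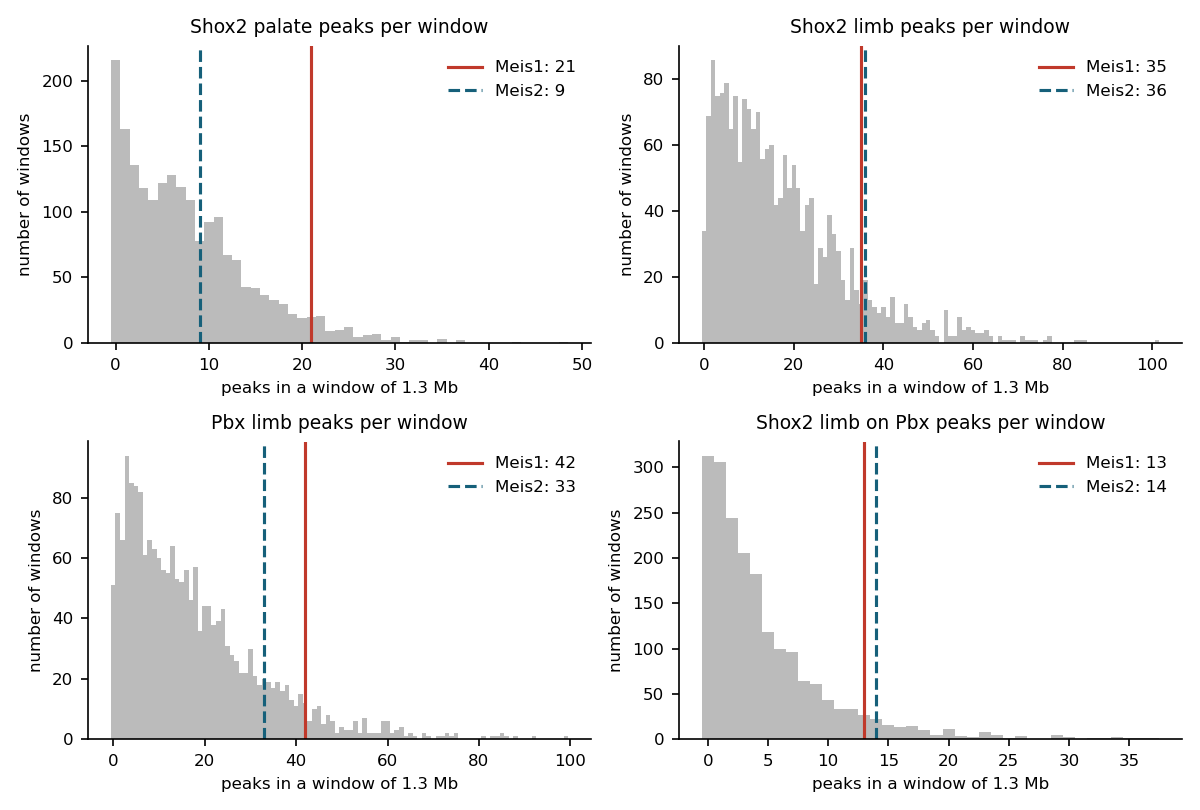
Number of windows of 1.3 Mb (vertical axis) by the number of peaks they hold, for palate Shox2, limb Shox2, limb Pbx and limb Shox2 peaks on Pbx. Lines mark Meis1 (solid) and Meis2 (dashed), which stand at 21 and 9, 35 and 36, 42 and 33, and 13 and 14 peaks.

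The first comparison asked how Shox2 and Pbx binding in limb relate at these loci. Of the Shox2 limb peaks, 13 of 35 at Meis1 (37.1%) and 14 of 36 at Meis2 (38.9%) overlapped a Pbx limb peak by at least 1 bp, against 26.5% of the whole Shox2 limb list. These 27 peaks were exactly the regions of the deposited co-occupancy list of both windows, so that list adds no further measurement. They lay on 12 Pbx peaks at each locus, since a few Pbx peaks held a pair of Shox2 peaks. The odds of lying on Pbx were 1.64 times those of all other Shox2 limb peaks at Meis1 (95% interval 0.757 to 3.4; two-sided Fisher's exact test, adjusted p = 0.651) and 1.76 times at Meis2 (0.834 to 3.61; adjusted p = 0.587). Neither window was called, in a test that called 2.36% of 1611 windows at an adjusted p under 0.05, 2.3% for a higher and 0.0621% for a lower share. With every peak set to 200 bp around its centre, 3 of 35 Shox2 limb peaks at Meis1 and 9 of 36 at Meis2 overlapped Pbx. These counts cannot be set against the 26.5%, which is for the intervals as listed. The odds ratio against all other peaks at that setting turned to 0.48 at Meis1, while at Meis2 it was 1.70. At Meis2 it was 1.04 in windows of 0.65 Mb and 3.61 with the first 50% of each limb list, neither past the threshold.

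Where Shox2 and Pbx peaks overlapped, the median distance between their centres was larger at Meis1 than at Meis2. Centres are midpoints of the intervals, as the lists do not give the point of strongest signal. The centre of the Shox2 peak lay a median of 284 bp from that of its Pbx peak at Meis1 and 112 bp at Meis2. Over all 8999 such sites the median was 142 bp. Distances ranged from 47 to 650 bp at Meis1 and from 12 to 1154 bp at Meis2. The Pbx peaks that met Shox2 had median widths of 1571.5 bp at Meis1 and 1178 bp at Meis2. The difference in distance between the loci was not tested, nor was the part of width in it. The Shox2 peak lay wholly inside the Pbx peak at 10 of 13 sites at Meis1 and at 14 of 14 at Meis2. In the whole list it did so at 7870 of 8999 sites. Some Shox2 peaks missed Pbx narrowly. Of the 22 that did not overlap Pbx at each locus, 4 at Meis1 and 3 at Meis2 had a Pbx peak within 1 kb. These were 18.2% and 13.6%, against 4.6% in the whole list. The windows also held 42 and 33 Pbx peaks, against a median of 14 over all windows. The part of this density in the near misses was not tested.

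Pbx peaks that met a Shox2 limb peak were wider and stood earlier in their list than those that did not. At Meis1 the 12 with Shox2 had a median width of 1571.5 bp, against 888 bp for the 30 without. At Meis2 the 12 with Shox2 had a median of 1178 bp, against 828 bp for the 21 without. In the whole list the medians were 1068 bp for the 7927 peaks with Shox2 and 853 bp for the others. The median place of the peaks with Shox2 was 12.1% of the way down the Pbx list at Meis1 and 18.7% at Meis2, against 67.3% and 71.2% for those without, and in the whole list it was 33.0% with Shox2 and 54.9% without. A wider interval also has more bases that can be overlapped, and the part of width in this was not tested. On the Shox2 side, limb peaks on Pbx had a median width of 306 bp at Meis1 and 305 bp at Meis2, against 237 and 213 bp for those not on Pbx.

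The co-occupied site of the Meis1 window that stands first in the Shox2 limb list lay in the 3′ flank. There the Shox2 peak chr11:18612267-18613021 was 755 bp wide and stood on line 1798, within a Pbx peak of 1633 bp on line 1226, and their centres were 324 bp apart. It was followed by chr11:18798453-18798948 inside the gene, on line 4820, and by chr11:19250436-19250837, about 331 kb upstream, on line 5913. The next were chr11:18434392-18434942 on line 8121, which met only the edge of a Pbx peak with centres 548 bp apart, and chr11:19481829-19482134 on line 8122, whose centre was 47 bp from that of Pbx. The Pbx peak standing first in its list was chr11:18844556-18846170 inside the gene, on line 762. Next came the peak on line 1226 just described and the 5177 bp peak near the 5′ end, on line 1247. The peak on line 762 also overlapped a Shox2 limb peak, chr11:18845034-18845239, from far down the Shox2 list (line 28424).

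At Meis2 the first co-occupied sites of the Shox2 limb list lay downstream of the gene. The first was chr2:115212057-115212403 on line 2566, near the lower edge of the window. The second was chr2:115423970-115424348 on line 4241, with its centre 98 bp from that of the Pbx peak chr2:115423419-115424704, which stood on line 696 and was first of the window in the Pbx list. The third was chr2:115217666-115218509 on line 5489, which at 844 bp was the widest Shox2 peak of both windows. Then came chr2:115309172-115309799 on line 13031, on a Pbx peak of line 2966, and chr2:116465509-116465788 on line 13193, at the upstream side of the window. Between the rounded ends of Meis2 there was 1 co-occupied site, chr2:115748920-115749235, against 4 between those of Meis1. Of these 4, chr11:18783475-18783688 and chr11:18911978-18912147 lay within 10 kb of an end, so their place inside the gene is not certain. The difference was not tested. Of the co-occupied Shox2 peaks, 10 of 13 at Meis1 and 7 of 14 at Meis2 stood in the first 50% of the list, as did 5869 of 8999 in the whole list.

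In number, Shox2 and Pbx limb peaks were close at both loci. The Meis1 window held 35 Shox2 limb and 42 Pbx limb peaks, an odds ratio of 0.83 for Shox2 over Pbx against all other peaks (95% interval 0.516 to 1.34; Fisher's exact test, adjusted p = 0.628). The Meis2 window held 36 and 33, an odds ratio of 1.09 (0.661 to 1.81; exact test, adjusted p = 0.910). This test called 36.2% of 1865 windows, 17.4% toward Shox2 and 18.8% toward Pbx, and neither Meis window was among them. Both limb lists hold 33915 peaks, so an excess of either list in some windows is offset in others. The counts compare lists of equal length, not amounts of binding. In a window of 2.6 Mb around Meis2, 89 Shox2 limb and 54 Pbx limb peaks gave an odds ratio of 1.65 with an adjusted p of 0.0105 (Fisher's exact test). At that size 53.9% of 978 windows were called, 30.5% toward Shox2 and 23.4% toward Pbx, so such a call was common.

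The second comparison set Shox2 binding in palate against that in limb. At Meis1 there were 21 palate positions and 35 limb peaks, so palate made up 37.5% of both, against 30.8% over the whole lists (odds ratio 1.35, 95% interval 0.746 to 2.38; Fisher's exact test, adjusted p = 0.495). At Meis2 there were 9 palate positions and 36 limb peaks, 20.0% palate (odds ratio 0.56, interval 0.238 to 1.19; exact test, adjusted p = 0.294). Neither was called, while 21.2% of 1817 windows were, 13.1% toward palate and 8.09% toward limb. Set against each other, the loci had an odds ratio of 2.38 for palate over limb, Meis1 over Meis2 (interval 0.89 to 6.77; Fisher's exact test, p = 0.0793, adjusted p = 0.238 over 3 tests). In windows of 0.65 Mb it was 1.2. The other tests between Meis1 and Meis2 gave an odds ratio of 0.93 for Shox2 limb peaks on Pbx (interval 0.32 to 2.69; exact test, adjusted p = 1) and of 0.77 for Shox2 over Pbx limb peaks (0.38 to 1.54; exact test, adjusted p = 0.761). The value on Pbx was 0.29 with peaks set to 200 bp and 0.56 with the first 50% of each list. These intervals are wide and do not show that the loci are alike.

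Within the Meis1 window the palate positions kept mostly to the upstream side, where 7 of them lay close together. The 50 kb from chr11:19000001 to 19050000 held 7 palate positions, 1 Shox2 limb peak and 1 Pbx limb peak. Of the 26 stretches of 50 kb in this window, 6 held no Shox2 limb peak and 9 no Pbx peak. The fullest held 4 peaks of either limb list, so limb peaks were not unusually few beside the 7 positions. The 7 positions lay between 87.4 and 114.1 kb upstream of the 5′ end, and the Shox2 limb peak nearest to any of them was 5132 bp away. No Shox2 limb peak lay between chr11:18911978-18912147, near the 5′ end of Meis1, and chr11:19039263-19039563. Of the 7 positions, chr11:19024899 stood earliest in the palate list, on line 567 of 15091. The others stood on lines 6331, 6965, 8578, 11066, 11067 and 13631. At Meis2 the densest 50 kb of palate positions, chr2:115800001-115850000 inside the gene, held 4 palate positions, 3 Shox2 limb peaks and 0 Pbx peaks. After the last of these, chr2:115845053, there was no palate position for 614.3 kb, a stretch that takes in the 5′ end of Meis2 and most of its upstream flank.

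Few palate positions at these loci lay inside a Shox2 limb peak, so the share of such sites is only roughly known. Its intervals take in the share of the whole palate list but do not show that the shares are alike. At Meis1, 3 of 21 palate positions lay inside a Shox2 limb peak (14.3%, 95% exact Clopper-Pearson interval 3.0 to 36.3%), and at Meis2 1 of 9 did (11.1%, 0.3 to 48.2%), against 14.2% of the whole palate list. None of the 30 palate positions lay in both a Shox2 and a Pbx limb peak, against 782 of 15091 (5.18%) in the whole list. What the line order of the palate list stands for is not stated. In its first 50%, 19.7% of positions lay in a Shox2 limb peak, and in its second 50%, 8.84%. The palate position with the lowest line number in both windows, chr11:19334100 on line 32 of 15091, was among them. It lies 414.1 kb upstream of Meis1, inside the limb peak chr11:19333926-19334341 on line 8778, with the nearest Pbx peak 4197 bp away. The second, chr11:18615197 on line 152, lay in a limb peak from far down its list (line 30944), 1413 bp from a Pbx peak. The shared site at Meis2, chr2:115277119 on line 1106, fell in a limb peak on line 33786, close to the end of the limb list. The other positions of low line number in the Meis2 window were chr2:115293983 on line 920, which lay 473 bp from a Shox2 limb peak, and chr2:115820151 on line 1400 inside the gene, which lay 6969 bp from one.

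On limb Pbx peaks lay 2 of 21 palate positions at Meis1 (9.5%, exact interval 1.2 to 30.4%) and 0 of 9 at Meis2 (exact upper limit 33.6%), against 15.6% of the whole palate list. Those at Meis1 were chr11:19324005 and chr11:19342313, both upstream of the gene and both away from Shox2 limb peaks. A further position, chr11:19363921, fell 7 bp outside a Pbx peak. Within 500 bp of a Pbx peak there were 4 of 21 positions at Meis1 (19.0%) and 1 of 9 at Meis2 (11.1%), against 17.2% of the whole palate list. All intervals here treat peaks as independent and cover counting error only.

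Peak density varied along both windows. Shox2 limb peaks were densest upstream of Meis1 at chr11:19050001-19100000, with 4 in 50 kb, and at the upstream end of the Meis2 window at chr2:116450001-116500000, with 5. Pbx peaks were densest at chr11:18750001-18800000, with 4 in 50 kb around the 3′ end of Meis1 (5 bins had that count), and at chr2:115400001-115450000, with 5, where 4 Shox2 limb peaks also lay. The longest stretches without a peak in the Meis1 window were 301.2 kb for palate Shox2, 134.7 kb for limb Shox2 and 234.1 kb for limb Pbx, all in the 3′ flank. In the Meis2 window they were 614.3 kb, 198.7 kb and 208.0 kb, and the one for limb Shox2 ran across the 5′ end of the gene. The window edges are arbitrary. At the upper edge of the Meis1 window the last limb peak inside was 16.8 kb away for Shox2 and 16.1 kb for Pbx, and the first outside was 10.6 and 10.8 kb away, while the last palate position inside was 53.6 kb and the first outside 1.8 kb away. At its lower edge the first peaks inside lay 114.0 kb (palate Shox2), 36.2 kb (limb Shox2) and 234.1 kb (Pbx) away, and those outside 205.6, 143.2 and 28.5 kb. For Meis2 the lower edge had limb peaks 10.7 kb (Shox2) and 10.6 kb (Pbx) inside and 25.7 and 47.2 kb outside, with palate positions 77.1 kb inside and 96.4 kb outside. The upper edge had limb peaks 30.9 kb (Shox2) and 31.0 kb (Pbx) inside and 61.4 and 61.6 kb outside, with palate positions 40.7 kb inside and 139.0 kb outside.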

How the data were processed

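The data are ChIP-seq peak lists from 3 libraries, 1 per group. The submitters' processing notes name Bowtie, MACS2 and build mm9. Versions, settings, the control of the peak calls and the rule that ended each list were not given in the sources used here. Deposited lists hold a chromosome, start and end; palate entries are 1 bp. Along both limb lists widths narrow (Spearman's rho of width with line, across peaks, -0.58 in the Shox2 list, -0.51 in the Pbx list), so line number may be a ranking, which the files do not state. In the Shox2 limb list 63.5% of peaks are followed by a peak of the same chromosome (5.5% by chromosome shares), nearly always (99.6%) in position order, as when many peaks tie, so its line numbers are coarse. In the palate list, whose entries have no width, 41.5% are so followed, and what its order stands for is not known.

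The windows and rounded gene ends, and all lists and sites, were chosen with earlier results of these data known. Sites named are those overlapping all lists, the first Shox2 peaks on Pbx in file order (5 per locus), the widest and the first Pbx peaks and the first palate positions (3 each), the fullest bins of 50 kb, the longest gaps and the peaks at window edges; others named were chosen after their values were seen. Overlap means 1 bp. Windows with at least 5 peaks were tested with two-sided Fisher's exact tests against the peaks of all other windows; p-values were adjusted by Benjamini and Hochberg's method over all windows. Neighbouring peaks are not independent, so p-values are too small and describe the lists, not embryos. The test was also run on simulated windows with independent counts and a larger odds ratio than any found at these loci. That run cannot show how the test behaves with dependent peaks or with odds ratios as small as those here. No mm9 genome was used here, so motifs in peaks and peaks near other TALE genes were not analysed. Promoter sequences are RefSeq's. Python 3.11.15, NumPy 2.4.6, pandas 2.3.3, SciPy 1.17.1 and matplotlib 3.10.9 were used.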

Additional observations from a re-analysis of the deposited data

How the results depend on the processing

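Of 51 odds ratios recomputed under other settings, 41 kept their direction and side of the threshold, and the rest are given here. For Shox2 over Pbx limb peaks at Meis2, the odds ratio was 0.85 in windows of 0.65 Mb, 0.81 with the first 50% of each limb list and 1.65 in windows of 2.6 Mb (Fisher's exact test, adjusted p = 0.0105), a size at which 527 of 978 windows were called. For palate over limb Shox2, it was 1.02 at Meis2 in windows of 0.65 Mb and 0.99 at Meis1 in windows of 2.6 Mb. The odds of Shox2 limb peaks on Pbx at Meis1 were 0.48 with peaks set to 200 bp. Between Meis1 and Meis2, the odds ratio for peaks on Pbx was 1.03 with peaks closer than 1 kb merged and 1.5 in windows of 0.65 Mb, and that for Shox2 over Pbx was 1.13 in windows of 0.65 Mb and 1.16 with the first 50% of each list. Among those that kept their direction, the odds ratio between Meis1 and Meis2 was 0.29 for peaks on Pbx with peaks set to 200 bp, 0.56 with the first 50% of each list, and 1.2 for palate over limb in windows of 0.65 Mb. None of the values that changed direction was past the threshold before or after. The cause was not tested.

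Over the whole genome, windows called for Shox2 against Pbx numbered 294 with the first 50% of each limb list, against 675, and those for palate against limb numbered 183 with the limb list limited to the length of the palate list, against 385. For the share on Pbx, 38 windows were called, 18 in windows of 0.65 Mb, 17 with peaks merged, 11 with the first 50% of each limb list and 0 with peaks set to 200 bp, where 85 windows had an unadjusted p under 0.05. Shorter windows, merging and shortened lists leave fewer peaks per test by construction. No paired analysis was possible because groups hold 1 library apiece, so none could be left out either. Palate positions at Pbx peaks numbered 2, or 4 within 500 bp and 1 with limb peaks set to 200 bp, at Meis1, and 0, 1 and 0 at Meis2. Depth is unknown.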
